A study of Homo sapiens with 27 samples.

Results

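The proteasome subunit genes were taken from the gene-level count table by symbol, as every row that began with PSMA, PSMB, PSMC or PSMD followed by a digit. The pattern picked 40 of 20268 genes, without use of any measured value. Of these, 31 encode the constitutive subunits, 14 in the core particle (PSMA1 to PSMA7 and PSMB1 to PSMB7) and 17 in the regulatory particle (6 PSMC and 11 PSMD genes). The other 9 were the immunoproteasome subunits PSMB8, PSMB9 and PSMB10, the tissue-restricted PSMA8 and PSMB11, the assembly chaperones PSMD5, PSMD9 and PSMD10, and PSMC3IP, which shares the name stem but encodes a recombination factor.

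RNA was sequenced from 3 prostate cancer cell lines, LNCaP, LNCaP95 and 22Rv1, to ask what changes when CPSF1 is depleted. CPSF1 is the large scaffold subunit of the complex that recognizes the polyadenylation signal of nascent mRNA. LNCaP is an androgen-responsive line from a lymph node metastasis, LNCaP95 was derived from it by culture without androgen, and 22Rv1 came from a relapsed xenograft. Each line carried a control short hairpin (CTRL sh) or a hairpin that targets CPSF1, of which there were 2 (CPSF1 sh1 and CPSF1 sh2), with 3 replicates per hairpin and line, 27 libraries in all. All groups, controls included, were infected with lentivirus, selected with puromycin, expanded as infected pools, seeded at 500000 per well in RPMI medium with serum and collected after 72 h. LNCaP95 was grown without phenol red and selected at a lower puromycin dose, so that line, medium and dose cannot be told apart in comparisons of LNCaP95 with either other line, whereas LNCaP and 22Rv1 shared both. The study calls the replicates biological but does not say at which step, infection or seeding, they were separated, and p-values measure the spread between them.

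The proteasome degrades proteins that carry ubiquitin chains. Its core particle is a barrel of stacked rings: the alpha subunits (PSMA) form the gated outer rings and the beta subunits (PSMB) the inner rings, in which PSMB5, PSMB6 and PSMB7 hold the proteolytic sites. The regulatory particle caps the barrel: its base holds the ATPase ring (PSMC), which unfolds substrates and opens the gate, with the non-ATPase subunits PSMD1, PSMD2 and PSMD4, and its lid holds the remaining PSMD subunits, among them the deubiquitinase PSMD14. The subunits are needed in fixed ratios, and many of their genes are known to be induced together by the transcription factor NFE2L1 through antioxidant response elements when proteasome activity is limiting.

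Promoter sequence was printed for the subunits on which the results turn, since the regulatory genes were not called alike in the 3 lines. RefSeq promoters (GRCh38.p14, 250 bases before and 50 after the annotated start) were found for 35 of the 40 genes, and were not found for PSMA7, PSMB1, PSMB6, PSMB7 and PSMD4. On both strands, the letters CCGGAAG, the core of sites bound by ETS family factors, were in 9 of 16 regulatory and in 0 of 10 core promoters of constitutive subunits (56.2% and 0%), against 10.7% of 27305 promoters of the same length. The letters TGACNNNGC, the core of the antioxidant response element, were in 4 of 16 regulatory and 1 of 10 core promoters (25% and 10%), against 13.6% of all promoters. The CCAAT box, also searched, was in 53.8% of the 26 constitutive promoters and 35.7% of all. Each window below is written 5′ to 3′ along the gene's strand, with the match or its reverse complement in capitals, and its position is that of the first capital, with 0 at the start. The first 5 windows hold the ETS core and belong to the 3 constitutive subunit genes called in opposite directions in LNCaP and LNCaP95 (PSMD8, PSMD13, PSMC6) and, for contrast, to PSMD6 and PSMD12, which were higher in both. The other constitutive subunits with the ETS core, not printed, were PSMC2, also higher in both, and PSMC1, PSMD7 and PSMD14, not called in LNCaP95. The chaperone genes PSMD5 and PSMD10 were also called in opposite directions, and their windows do not hold the ETS core. The last 5 hold the response element core and belong to the 5 constitutive subunit genes found with it. All were higher in LNCaP, as were 77.4% of all constitutive subunits. The same core was in the promoters of PSMD5, which was lower in LNCaP, PSMD9, which was higher there, and PSMB9, which was not tested.
PSMD8 (chr19:38374546-38374568, plus strand, position -17): aaagccaaCTTCCGGtcaccatc
PSMD13 (chr11:236956-236978, plus strand, position -12): gctcggcgCCGGAAGtgagtgag
PSMC6 (chr14:52707085-52707107, plus strand, position -107): ggggccaaCCGGAAGgggagggc
PSMD6 (chr3:64023517-64023539, minus strand, position -37): agacgggaCCGGAAGccgggccg
PSMD12 (chr17:67366571-67366593, minus strand, position -8): gcgggcaaCTTCCGGtgtgggtg
PSMD1 (chr2:231056898-231056916, plus strand, position 39): gaggcgacTGACTGAGCag
PSMD3 (chr17:39980762-39980786, plus strand, position -37): ccctttgtTGACTCGGCcatcggcc
PSMD12 (chr17:67366726-67366750, minus strand, position -165): acaaaaccTGACGCTGCaggctgga
PSMC4 (chr19:39971184-39971208, plus strand, position 27): agaggccgGCTTGGTCActatggag
PSMB3 (chr17:38752629-38752653, plus strand, position -104): ctccgtttTGACTTTGCaaccaaac
These matches describe the letters in the windows only and are not evidence of binding.

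The libraries held 8515624 to 15904518 counts (median 11058723). CPSF1 fell in every line, with a log2 fold change of -0.65 ± 0.056 (SE) in LNCaP, -0.89 ± 0.079 in LNCaP95 and -0.50 ± 0.062 in 22Rv1 (edgeR quasi-likelihood test, Benjamini-Hochberg adjusted p = 1.68e-07, 1.31e-06 and 9.66e-05), and all 6 knockdown libraries lay below all 3 controls in each line. The luminal prostate markers KLK3, KRT8 and KRT18 were above 2 CPM, a share of the total count, in every library, and none of 4 leukocyte or 3 basal markers was. Of 4 fibroblast markers COL1A1 was above it in each line and LUM in 22Rv1, and the endothelial VWF was above it in LNCaP. Some of these markers moved with the knockdown. In LNCaP, the summed endothelial level, nearly all VWF, was 22.3 to 28 CPM with CTRL sh and 9.3 to 12.7 with CPSF1 hairpins. The fibroblast sum there, nearly all COL1A1, was 21.9 to 26.2 and 13.5 to 16.8. The basal sum there, nearly all KRT14, was 1.26 to 2.1 with CTRL sh and 3.78 to 6.29 with CPSF1 hairpins. The leukocyte sum there, mostly CD14, was 0.0837 to 0.0939 and 0.899 to 1.59. These sums thus follow single genes rather than whole marker lists. The basal sum was 1.67 to 3.04 with CTRL sh and 2.46 to 6.04 with CPSF1 hairpins in LNCaP95 and at most 0.475 in 22Rv1, while the defining basal genes TP63 and KRT5 were at most 0.380 and 0.186 CPM in any library. KLK3 was 1066 to 1141 CPM with CTRL sh and 318 to 408 with CPSF1 hairpins in LNCaP, 2013 to 2054 and 953 to 1135 in LNCaP95, and 37.3 to 42.6 and 48.0 to 57.2 in 22Rv1. The part of these shifts in the subunit results was not tested. In bulk RNA, fewer cells of a type and less RNA per cell cannot be told apart. Levels of a gene are given below as normalized CPM, the usual depth-scaled count, with libraries scaled by the trimmed mean of M-values over the genes tested, and all fold changes and adjusted p come from the edgeR quasi-likelihood test across all genes tested, with 0.05 as threshold.

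With CTRL sh, the constitutive subunits were all well expressed, but their transcripts were far from equal in amount. Per kilobase of exon, PSMB4, a non-catalytic beta subunit, had the highest level in each line, at 278 ± 4.2 CPM per kb in LNCaP, 261 ± 28.1 in LNCaP95 and 331 ± 9.4 in 22Rv1 (SD, n = 3). The ATPase gene PSMC6 had the lowest level in LNCaP (15.9 ± 0.87 CPM per kb) and LNCaP95 (16.8 ± 1.1). In 22Rv1 the alpha subunit gene PSMA6 (18.6 ± 1.5) and PSMC6 (19.0 ± 0.88) were lowest and did not differ beyond their SD. The highest level was thus 17.5, 15.5 and 17.8 times the lowest in LNCaP, LNCaP95 and 22Rv1. Exon length here is the union over all annotated transcripts, so a gene with long unused exons has its level understated. In PSMA6, 56.9% of exon bases are also exons of KIAA0391 on the same strand. The share was 26.1% for PSMA2 (C7orf25) and 14% for PSMA1 (COPB1), and the counts behind the changes of these genes share this limit. The median level per kb of the core and the regulatory subunits was 83.1 and 81.6 in LNCaP. It was 79.5 and 68.0 in LNCaP95, against 69.8 and 64.1 in 22Rv1.

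**Figure D1:**
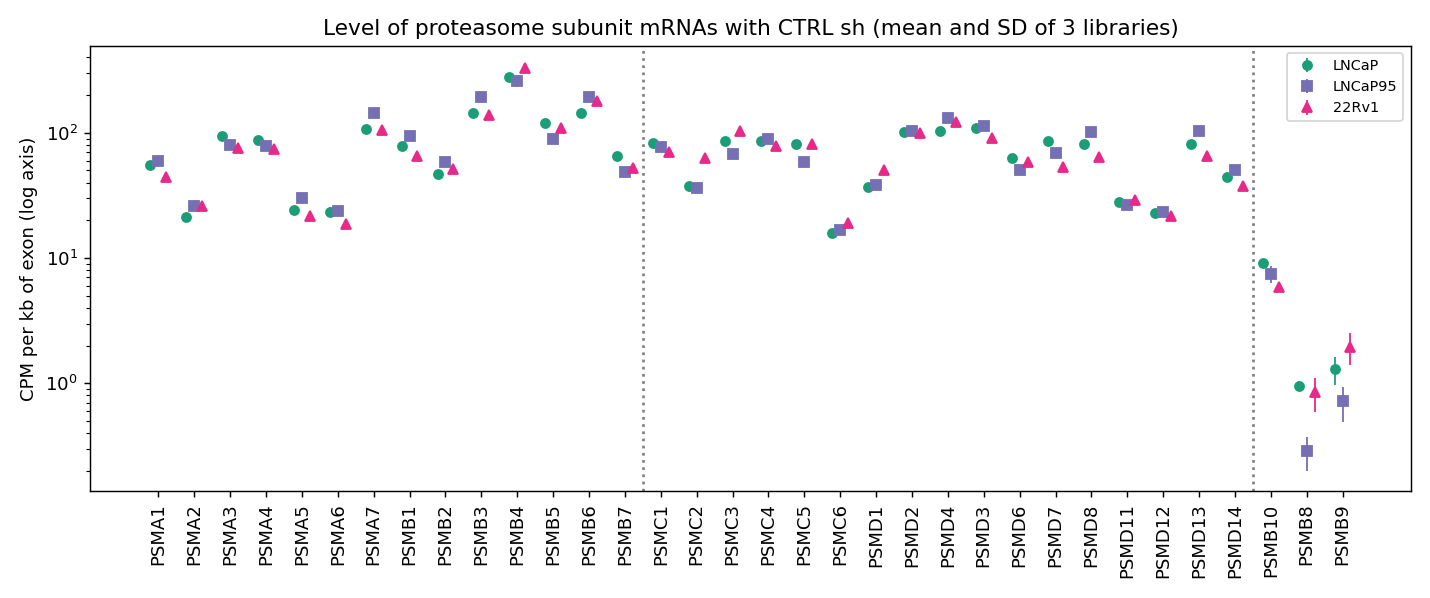
Level of each proteasome gene with CTRL sh in normalized CPM per kb of exon (log axis), as the mean of 3 libraries with the SD as bar, in LNCaP, LNCaP95 and 22Rv1. PSMB4 is the highest constitutive subunit in each line, and the immunoproteasome genes PSMB8 and PSMB9 lie far below the others.

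Most proteasome subunit genes rose with CPSF1 depletion in LNCaP. Of the 31 constitutive subunits, 24 were higher (77.4%) and 2 lower, against 31.1% of all 11096 genes tested that were higher and 31% that were lower. Their median log2 fold change was 0.22, against a median near 0 over all genes. The rise took in 10 of 14 core subunits (median 0.17) and 14 of 17 regulatory subunits (median 0.29). By role, it comprised 6 of 7 alpha subunits, 4 of 7 beta subunits, 6 of 6 ATPases, 2 of 3 other base subunits and 6 of 8 lid subunits. In 24 of the 31, all 6 knockdown libraries were above all 3 controls, against 27.9% of all genes tested, and in 1 they were below, against 27.7%.

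The largest changes in LNCaP were in the regulatory particle. The normalized CPM of PSMD8, a lid subunit (chromosome 19, 38865176 to 38874464, plus strand, GRCh37), was 234, 229 and 220.3 with CTRL sh, 314, 295 and 293 with CPSF1 sh1 and 312, 303 and 311 with CPSF1 sh2. Each knockdown library exceeded every control, with little difference between hairpins. The log2 fold change was 0.42 ± 0.036 (SE, adjusted p = 1.55e-07), a 1.34-fold increase. PSMD1, the largest scaffold of the base, had 147, 146 and 148 CPM with CTRL sh, 189, 188 and 189 with CPSF1 sh1 and 195, 196 and 196 with CPSF1 sh2, again without overlap, and rose by log2 0.38 ± 0.033 (SE, adjusted p = 1.63e-07). PSMC4, an ATPase, had 137, 129 and 133 CPM with CTRL sh, 181, 181 and 177 with CPSF1 sh1 and 168, 168 and 161 with CPSF1 sh2 and rose by log2 0.37 ± 0.044 (SE, adjusted p = 4.28e-06). For PSMC4 the sh1 libraries were all above the sh2 libraries, and the hairpins differed by log2 0.12 ± 0.037 (adjusted p = 0.0379).

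Changes of the core subunits were smaller. PSMA6 rose by log2 0.28 ± 0.063 (SE, adjusted p = 0.00132), PSMB3 by 0.26 ± 0.035 (SE, adjusted p = 1.34e-05) and PSMA7 by 0.24 ± 0.032 (SE, adjusted p = 1.27e-05). Of the catalytic subunits, PSMB5, which carries the chymotrypsin-like activity, had 205, 209.9 and 206 CPM with CTRL sh, 251, 245 and 244 with CPSF1 sh1 and 236, 237 and 242 with CPSF1 sh2 and rose by log2 0.23 ± 0.032 (SE, adjusted p = 2.48e-05). PSMB6, which carries the caspase-like activity, rose by log2 0.21 ± 0.044 (SE, adjusted p = 0.000724), while PSMB7, which carries the trypsin-like activity, had a log2 fold change of 0.03 ± 0.042 (SE, adjusted p = 0.549) and did not pass the test. The exceptions in direction were the ubiquitin receptor PSMD4, which fell (log2 -0.13, adjusted p = 0.00558, all 6 knockdown libraries below the controls), and PSMB4, whose groups overlapped (log2 -0.12, adjusted p = 0.043, 222 to 267 CPM with CPSF1 hairpins against 257 to 265 with CTRL sh). The call for PSMB4 was lost when any of 5 libraries was left out, with fold changes of -0.13 to -0.094 on the log2 scale and the highest adjusted p, 0.133, without CTRL sh replicate 3, while those for PSMA3 and PSMA4 were lost without CTRL sh replicate 3 (adjusted p = 0.0557 and 0.076), and PSMA3 also without CTRL sh replicate 2 (0.0588). With no filter on low counts, the calls for PSMA3 (adjusted p = 0.0608) and PSMA4 (0.0796) were lost as well. So were those for PSMA4 with CPSF1 sh2 alone (0.0536) and for PSMB4 with CPSF1 sh1 alone (0.118).

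**Figure D2:**
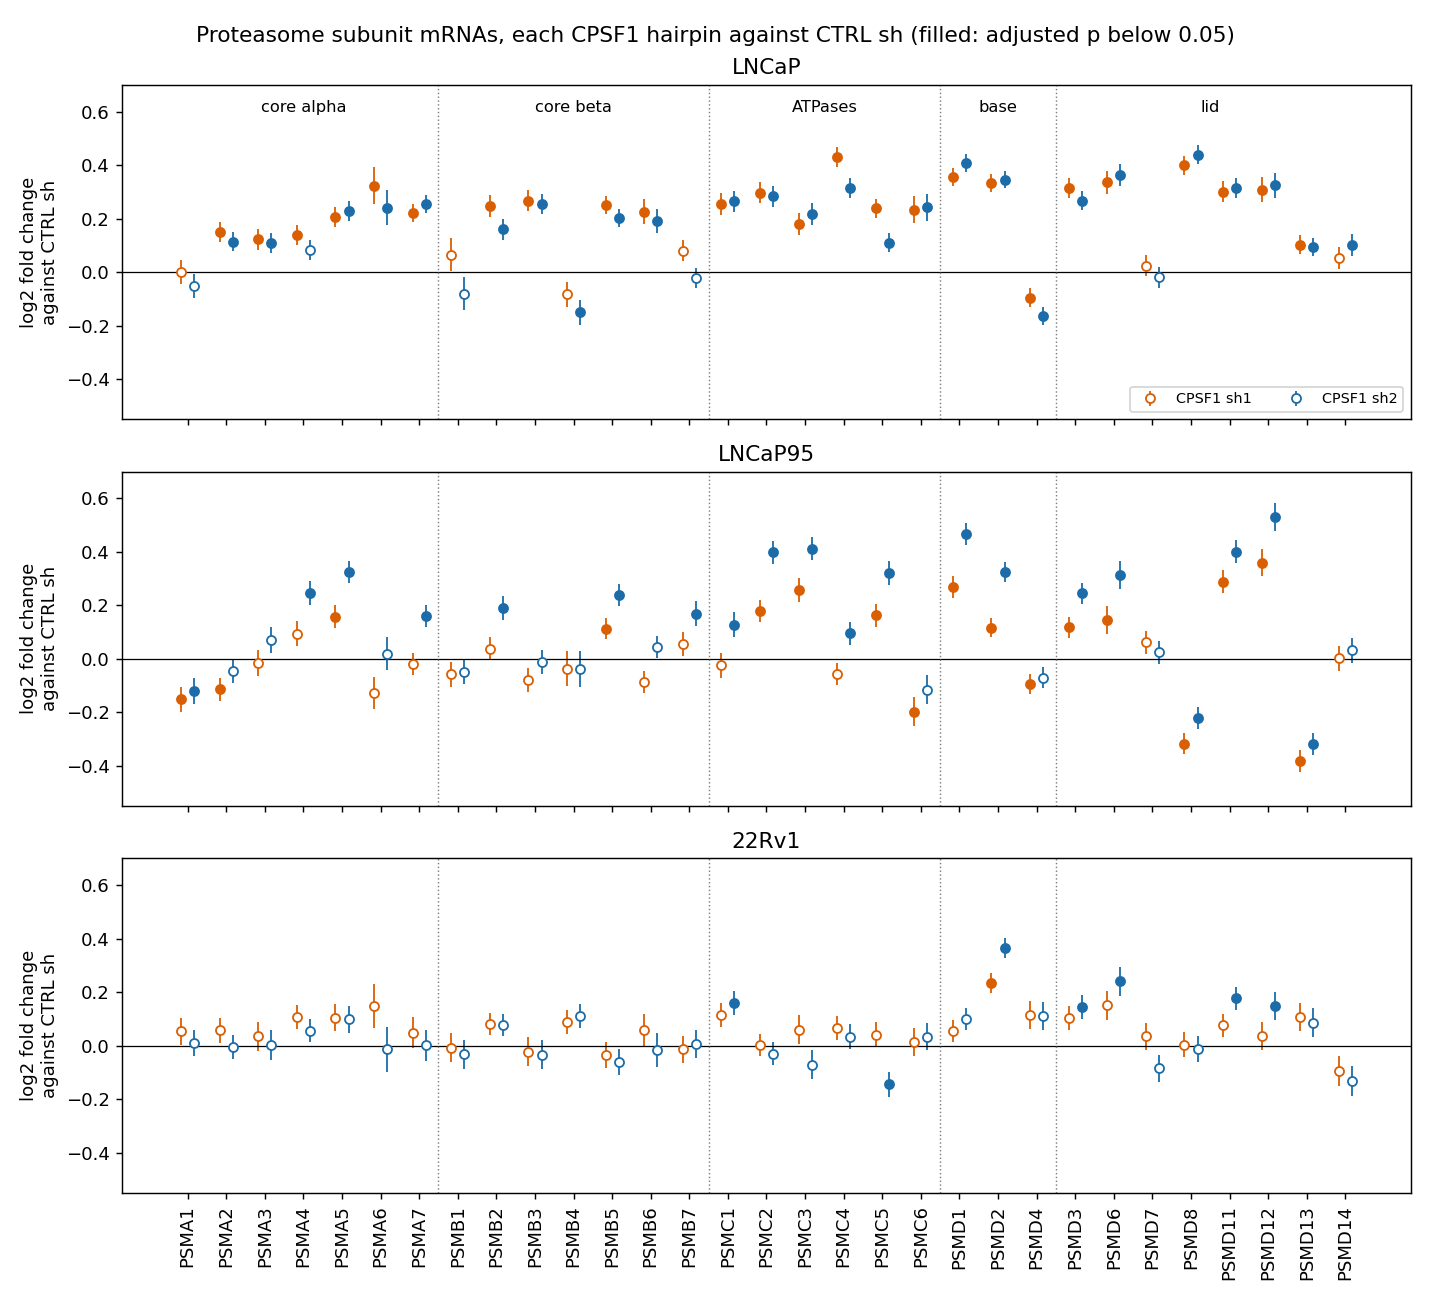
Log2 fold change of each of the 31 constitutive subunits against CTRL sh, one marker per hairpin with its SE as bar, in LNCaP, LNCaP95 and 22Rv1, with filled markers at adjusted p below 0.05. In LNCaP most markers lie above 0, in LNCaP95 CPSF1 sh2 lies above CPSF1 sh1 for 29 of 31 subunits, and in 22Rv1 most markers are open.

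In LNCaP95, the regulatory particle genes were split and the core genes showed no common direction. Of the 31 constitutive subunits, 12 were higher (38.7%) and 4 lower, against 33.2% and 33.7% of 11143 genes tested, so that the share of higher subunits was near the background. The median log2 fold change was 0.05. Among core subunits 3 of 14 were higher and 1 lower (median near 0). Of the 17 regulatory subunits 9 were higher and 3 lower (median 0.18). Without overlap between groups, 11 subunits were above and 3 below the controls, against 29.8% and 30.3% of all genes. When libraries were scaled by library size alone, the call counts were 17 higher and 2 lower over subunits and 42.0% higher and 25.6% lower over all genes, whose median log2 fold change was then 0.088.

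PSMD12, a lid subunit (chromosome 17, 65334032 to 65362743, minus strand, GRCh37), changed most, with 105, 115 and 118 CPM with CTRL sh, 139, 139.7 and 153 with CPSF1 sh1 and 165, 158 and 163 with CPSF1 sh2. All knockdown libraries were above the controls, and the rise was log2 0.45 ± 0.066 (SE, adjusted p = 7.52e-05), or 1.36-fold. PSMD1 rose as well, by log2 0.37 ± 0.063 (SE, adjusted p = 0.000213). The core subunits with the largest changes were PSMA5 (log2 0.24, adjusted p = 0.00247), PSMB5 (log2 0.18, adjusted p = 0.00639) and PSMA4 (log2 0.17, adjusted p = 0.0225), all higher, although the PSMA4 call was lost without CTRL sh replicate 1 (0.121) or 3 (0.0595). It was also lost with CPSF1 sh1 alone (adjusted p = 0.0928), with filterByExpr (0.0675) and with no filter (0.0852).

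A group of 3 regulatory subunits was called in opposite directions in the parental and the derived line. The share of all genes called in opposite directions in these lines was not computed, so this count has no background beside it. Within a line, 31.1% of all genes were higher and 31% lower in LNCaP, and 33.2% and 33.7% in LNCaP95. PSMD13, a lid subunit (chromosome 11, 236546 to 252981, plus strand, GRCh37), had 219.9, 235 and 224 CPM with CTRL sh, 171, 177 and 172 with CPSF1 sh1 and 176, 184 and 185 with CPSF1 sh2 in LNCaP95. The controls and the knockdown libraries were well separated, and PSMD13 fell by 0.35 ± 0.042 on the log2 scale (SE, adjusted p = 1.46e-05). In LNCaP the same gene had 177, 177 and 175 CPM with CTRL sh, 191, 186 and 191 with CPSF1 sh1 and 181, 190.1 and 192 with CPSF1 sh2 and rose slightly, by log2 0.10 ± 0.032 (SE, adjusted p = 0.0158). This call was lost without CTRL sh replicate 3 (log2 0.091, adjusted p = 0.0635) and with no filter on low counts (log2 0.073, adjusted p = 0.0988). PSMD8, which had the largest rise in LNCaP, had 296, 275 and 289 CPM with CTRL sh, 231, 233 and 227 with CPSF1 sh1 and 239, 248 and 252 with CPSF1 sh2 in LNCaP95 and fell by 0.27 ± 0.046 on the log2 scale (SE, adjusted p = 0.000212), with every knockdown library below every control. The ATPase PSMC6 (chromosome 14, 53173890 to 53195305, plus strand, GRCh37) had 92.7, 90.4 and 83.3 CPM with CTRL sh, 98.6, 108 and 106 with CPSF1 sh1 and 109, 99.99 and 107 with CPSF1 sh2 in LNCaP and rose by log2 0.24 ± 0.047 (SE, adjusted p = 0.000462). In LNCaP95 it had 88.9, 101 and 96.3 CPM with CTRL sh, 79.0, 84.1 and 86.4 with CPSF1 sh1 and 86.9, 91.5 and 85.4 with CPSF1 sh2. The LNCaP95 groups overlapped, and the call of a log2 fold change of -0.16 ± 0.055 (SE, adjusted p = 0.0228) was lost without CTRL sh replicate 2 (log2 -0.11, adjusted p = 0.119), without CTRL sh replicate 3 (0.0738) and with scaling by library size alone (0.261). The fourth subunit lower in LNCaP95, the alpha subunit PSMA1 (log2 -0.14, adjusted p = 0.0221), lost its call under the same 3 settings (adjusted p = 0.126, 0.0739 and 0.359), so that 2 subunits, PSMD8 and PSMD13, were lower in LNCaP95 under each.

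The difference between LNCaP95 and LNCaP was itself tested in a fit over all 27 libraries, which held 10317 genes. The change with knockdown differed by log2 -0.67 ± 0.048 (adjusted p = 3.57e-13) for PSMD8, -0.43 ± 0.05 (adjusted p = 1.44e-08) for PSMD13 and -0.38 ± 0.065 (adjusted p = 1.04e-05) for PSMC6. Over the 31 subunits, the change was lower in LNCaP95 for 11 and higher for 2 (35.5% and 6.45%), against 28.5% and 31.2% of all genes. The comparison of 22Rv1 with LNCaP gave 17 subunits with a lower and 2 with a higher change in 22Rv1 (54.8% and 6.45%), against 25% and 25.3%. Between 22Rv1 and LNCaP95, 10 were lower and 5 higher in 22Rv1, against 30.9% and 30.8%. These comparisons share the libraries of each line.

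**Figure D3:**
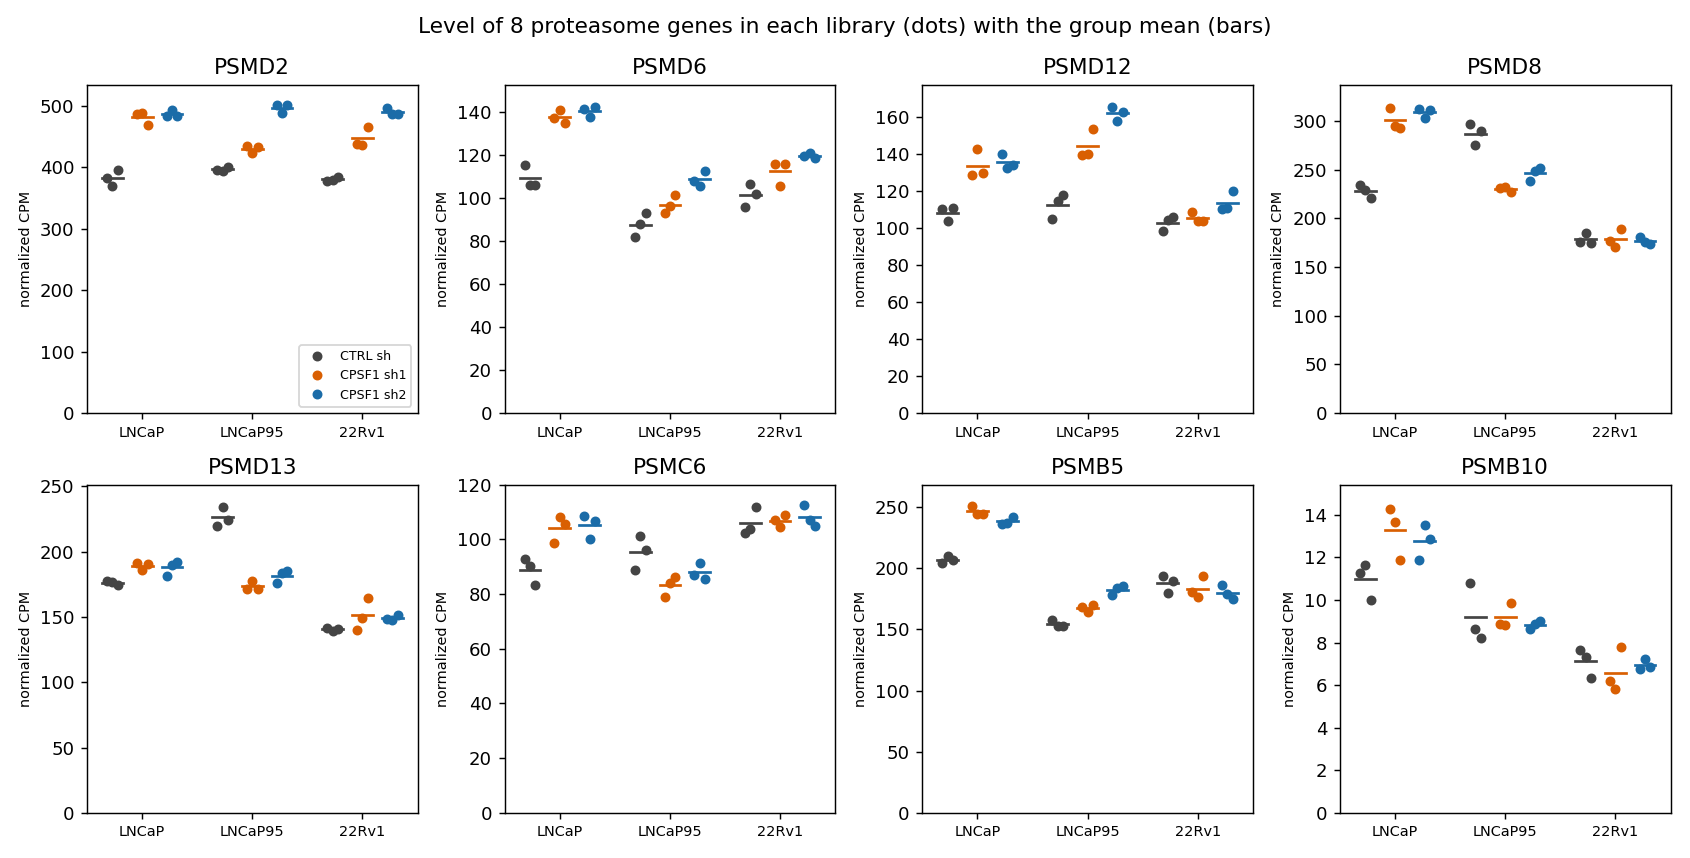
Normalized CPM of 8 proteasome genes in each library (dots) with the group means (bars), by line and hairpin, on linear axes from 0. By group mean, PSMD2 and PSMD6 are higher with both CPSF1 hairpins in all 3 lines, while PSMD8, PSMD13 and PSMC6 are higher than CTRL sh in LNCaP and lower in LNCaP95, where the PSMC6 libraries overlap.

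In 22Rv1 few subunits changed. Of the 31, 4 were higher (12.9%), against 12.7% of 11728 genes tested, and 0 were lower, against 14.3%. The 4 were all regulatory, and the medians were 0.08 for regulatory and 0.03 for core subunits. At an unadjusted p under 0.05 there were 8 higher and 1 lower, PSMD14, and DESeq2 called 5 higher and 0 lower. Knockdown libraries lay above the controls without overlap for 7 subunits and below for 0, against 13% and 15.2% of all genes. PSMD2, a scaffold and substrate-docking subunit of the base (chromosome 3, 184016497 to 184026842, plus strand, GRCh37), had 378, 379 and 385 CPM with CTRL sh, 438, 437 and 466 with CPSF1 sh1 and 496, 487 and 487 with CPSF1 sh2. It rose by log2 0.30 ± 0.047 (SE, adjusted p = 0.000455), and this call was kept when any library was left out. The others were PSMD6 (log2 0.20, adjusted p = 0.0143), the ATPase PSMC1 (log2 0.14, adjusted p = 0.0284) and PSMD3 (log2 0.12, adjusted p = 0.0499). PSMD6 lost its call without CTRL sh replicate 1 (adjusted p = 0.102) or CTRL sh replicate 3 (0.0521). PSMC1 lost it when any one CTRL sh library, CPSF1 sh2 replicate 1 or CPSF1 sh2 replicate 3 was left out (0.055 to 0.103), and PSMD3 when any one CTRL sh or CPSF1 sh2 library was left out (0.0601 to 0.187). The count of higher subunits was 1 without CTRL sh replicate 1 or 3, and 2 without CTRL sh replicate 2 or without CPSF1 sh2 replicate 1 or 3. PSMC1 has 13 named pseudogenes, and how reads that map to several places were counted is not given in the sources used here.

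Only the regulatory subunits PSMD2, PSMD3 and PSMD6 were called in the same direction in all 3 lines, each higher. PSMD2 had 383, 369.9 and 396 CPM with CTRL sh, 487, 489 and 469.5 with CPSF1 sh1 and 483, 493 and 484 with CPSF1 sh2 in LNCaP and 396, 394 and 401 CPM with CTRL sh, 435, 423 and 433 with CPSF1 sh1 and 502, 488 and 501 with CPSF1 sh2 in LNCaP95, with log2 fold changes of 0.34 (adjusted p = 5.01e-07) and 0.22 (adjusted p = 0.0068). PSMD3, a lid subunit, rose by log2 0.29 (adjusted p = 8.37e-06) and 0.18 (adjusted p = 0.00546) in these lines, and PSMD6, a lid subunit, by 0.35 (adjusted p = 2.46e-06) and 0.23 (adjusted p = 0.00761). The PSMD6 call in LNCaP95 was lost without CTRL sh replicate 1 (adjusted p = 0.0551). In 22Rv1 the calls of PSMD3 and PSMD6 were lost with single libraries left out, as given above. The shares of all genes with the call patterns counted here were not computed, so these counts have no background beside them. A further 9 subunits were higher in LNCaP and LNCaP95 (PSMA4, PSMA5, PSMB5, PSMC2, PSMC3, PSMC5, PSMD1, PSMD11 and PSMD12), 8 were higher in LNCaP and called in no other line (PSMA2, PSMA3, PSMA6, PSMA7, PSMB2, PSMB3, PSMB6 and PSMC4), and 4 were called in no line (PSMB1, PSMB7, PSMD7 and PSMD14). Some of these depended on the setting. In LNCaP95, PSMB7 was higher with CPSF1 sh2 alone (adjusted p = 0.0038), with the hairpins averaged (0.0128) and without CPSF1 sh1 replicate 2 (0.0271). With library size alone, PSMB7 (0.00239) and PSMD7 (0.0217) were higher there. With CPSF1 sh2 alone, PSMD14 was higher in LNCaP (0.0329) and lower in 22Rv1 (0.0231). Across the 31 genes, log2 fold changes in LNCaP and LNCaP95 correlated with Pearson r = 0.37 and Spearman rho = 0.41, those in LNCaP and 22Rv1 with 0.25 and 0.26, and those in LNCaP95 and 22Rv1 with 0.21 and 0.16. Genes are not independent replicates, and each line's values share its 3 control libraries.

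The hairpins gave unequal changes in LNCaP95. There 29 of 31 subunits had a lower value with CPSF1 sh1 than with CPSF1 sh2 (median log2 difference -0.13), and 17 of them (54.8%) passed the test, 6 core and 11 regulatory, against 16.5% of all genes lower in sh1 and 17.7% higher. The difference was -0.22 ± 0.042 (adjusted p = 0.000472) for PSMC2, -0.21 ± 0.036 (adjusted p = 0.000171) for PSMD2 and -0.20 ± 0.04 (adjusted p = 0.000812) for PSMD1. All 3 genes rose with either hairpin, so this was a difference of size. PSMA7 had log2 -0.02 with CPSF1 sh1 (adjusted p = 0.682) and 0.16 with CPSF1 sh2 (0.00138), and the hairpins differed by -0.18 ± 0.04 (adjusted p = 0.00184). The count of 17 fell to 9 without CPSF1 sh2 replicate 3 and to 11 without CPSF1 sh1 replicate 2. In LNCaP95, normalized CPM of CPSF1 itself was 128, 97.0 and 117 with CTRL sh, 68.2, 57.1 and 58.7 with CPSF1 sh1 and 61.7, 63.9 and 58.8 with CPSF1 sh2, with overlap between hairpins.

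Against the shared controls, LNCaP95 had 11 subunits higher and 6 lower with CPSF1 sh1 (all genes 33.1% and 33.3%), and 17 higher and 3 lower with CPSF1 sh2 (36.5% and 36.9%). LNCaP had 24 higher with each hairpin (31.2% and 32.1% of all genes), with 1 lower with sh1 and 2 with sh2 (31.3% and 32.5%). Between its hairpins only PSMC4 and PSMC5, both ATPases, differed (2 of 31), each higher with sh1, against 8.24% of all genes higher and 6.53% lower with sh1. In 22Rv1, CPSF1 sh1 gave 1 higher subunit, PSMD2, and 0 lower (8.79% and 11.1% of all genes), while CPSF1 sh2 gave 6 higher and 1 lower (19.1% and 20.9%). Fitted without the CPSF1 sh1 libraries, CPSF1 sh2 gave 11 higher and 2 lower, against 25.1% and 26.3% of all genes. PSMC5 and PSMD2 differed between the 22Rv1 hairpins (1 higher and 1 lower of 31 with sh1, all genes 5.85% and 5.47%), by 0.19 ± 0.046 (adjusted p = 0.0194) and -0.13 ± 0.037 (adjusted p = 0.0319). The LNCaP count was 0 without CPSF1 sh2 replicate 2 or 3 and 1 without CPSF1 sh1 replicate 2 or 3. The 22Rv1 count was 0 without any one CPSF1 sh2 library and 1 without CPSF1 sh1 replicate 1 or 2.

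Summed over each particle, the regulatory subunits had a larger ratio to the control mean than the core subunits with both hairpins in each line. In LNCaP, the 14 core genes summed to 2111 ± 2.1 CPM with CTRL sh, 2326 ± 20.7 with CPSF1 sh1 and 2252 ± 17.2 with CPSF1 sh2 (SD, n = 3), or 1.10 and 1.07 times the control. The 17 regulatory genes summed to 2757 ± 37.8, 3284 ± 29.0 and 3262 ± 11.1, or 1.19 and 1.18 times. The library sums did not overlap with the controls for either particle. In LNCaP95 the regulatory sum was 1.02 and 1.12 times and the core sum 0.991 and 1.06 times the control with CPSF1 sh1 and CPSF1 sh2, and in 22Rv1 the regulatory sum was 1.06 and 1.07 times and the core sum 1.03 and 1.02 times. CPSF1 sh1 replicate 3 stood apart among the 22Rv1 libraries, with a chi-square per degree of freedom of 6.98 and 4.37 against its replicates, which gave 1.92 against each other. Its core sum was 2233 CPM, against 2073 and 2055 in those replicates and 2017 to 2106 with CTRL sh, and without it the CPSF1 sh1 core sum was 1.01 times and the regulatory sum 1.04 times the control. Without this library, 6 subunits were higher and 1 lower in 22Rv1.

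The ratio of the regulatory to the core sum was higher with each hairpin in each line by its mean. It was 1.31 ± 0.018, 1.41 ± 0.0068 and 1.45 ± 0.0088 in LNCaP with CTRL sh, CPSF1 sh1 and CPSF1 sh2 (SD, n = 3). In LNCaP95 it was 1.25 ± 0.013, 1.29 ± 0.0043 and 1.31 ± 0.014, and in 22Rv1 1.33 ± 0.021, 1.36 ± 0.021 and 1.40 ± 0.028. All knockdown libraries of LNCaP and LNCaP95 exceeded the controls of their line, whereas in 22Rv1 CPSF1 sh1 overlapped with CTRL sh. The ratio depends on the few most abundant genes of each sum and was compared within a line only, without a test.

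**Figure D4:**
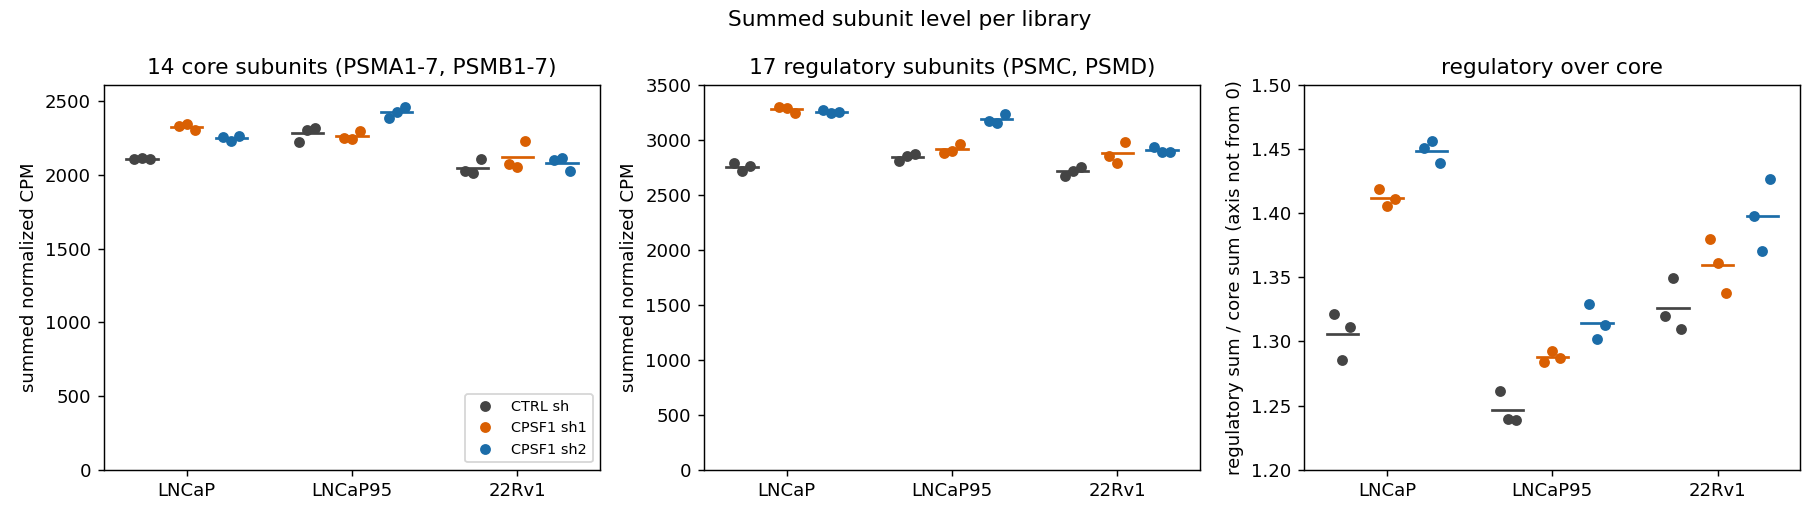
Summed normalized CPM of the 14 core subunits (left, axis from 0) and of the 17 regulatory subunits (middle, axis from 0), and the ratio of the regulatory to the core sum (right, axis not from 0), per library (dots) with the group mean (bars). The ratio lies between 1.24 and 1.32 in the controls of LNCaP and LNCaP95 and lies above the controls of the same line in all their knockdown libraries.

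The immunoproteasome genes, whose products replace the catalytic subunits after interferon exposure, were low in all lines. Per kb with CTRL sh, PSMB5 was 126, 309 and 129 times PSMB8 in LNCaP, LNCaP95 and 22Rv1, PSMB6 was 112, 268 and 91.3 times PSMB9, and PSMB7 was 7.16, 6.44 and 8.91 times PSMB10. PSMB8 and PSMB9 were too low to be tested (2 CPM was required in each of the 9 libraries). PSMB10 was tested, with 11.3, 11.6 and 10.00 CPM with CTRL sh, 14.3, 13.7 and 11.9 with CPSF1 sh1 and 11.9, 13.5 and 12.9 with CPSF1 sh2 in LNCaP. There it rose by log2 0.24 ± 0.095 (SE, adjusted p = 0.0361), and this call was lost without any one of CTRL sh replicates 1 and 3, CPSF1 sh1 replicates 1 and 2 and CPSF1 sh2 replicates 2 and 3 (adjusted p = 0.0547 to 0.171) and with DESeq2 (0.0724). The call was also lost with CPSF1 sh1 alone (adjusted p = 0.05004), with CPSF1 sh2 alone (0.0682) and with no filter on low counts (0.0773). The log2 fold change of PSMB10 was -0.041 (adjusted p = 0.743) in LNCaP95 and -0.081 (adjusted p = 0.65) in 22Rv1. In PSMB10, 30.1% of exon bases are also exons of another gene on the same strand. The catalytic subunits that they replace had log2 fold changes in LNCaP95 and 22Rv1 of 0.18 (adjusted p = 0.00639) and -0.048 (adjusted p = 0.457) for PSMB5, -0.019 (adjusted p = 0.751) and 0.021 (adjusted p = 0.825) for PSMB6, and 0.11 (adjusted p = 0.0583) and -0.0038 (adjusted p = 0.961) for PSMB7, so that PSMB5 in LNCaP95 was the single call.

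PSMB8 counts were 16 to 17 with CTRL sh, 4 to 10 with CPSF1 sh1 and 5 to 10 with CPSF1 sh2 in LNCaP. In LNCaP95 they were 4 to 6, 9 to 15 and 13 to 17, and in 22Rv1 10 to 16, 8 in each library, and 4 to 10. With no filter on low counts, the log2 fold change of PSMB8 was -1.05 (adjusted p = 0.00959), 1.21 (0.0143) and -0.89 (0.054) in LNCaP, LNCaP95 and 22Rv1, and that of PSMB9 was -0.57 (0.187), 0.39 (0.321) and -0.60 (0.116). The testis-specific PSMA8 had 0 counts in all libraries, which allows up to 3 counts, or 0.189 to 0.352 CPM by depth, for counting error only. The thymus-specific PSMB11 had 0 to 3 counts.

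The assembly chaperones of the ATPase ring did not move together. PSMD9 rose in LNCaP (log2 0.34, adjusted p = 5.06e-05) and LNCaP95 (log2 0.21, adjusted p = 0.00285). In PSMD9, 21.7% of exon bases are also exons of other genes on the same strand. PSMD5 fell in LNCaP (log2 -0.29, adjusted p = 0.00687, lost without CTRL sh replicate 2 at 0.0703) and rose in LNCaP95 (log2 0.27, adjusted p = 0.0116, lost without CTRL sh replicate 1 at 0.0754). PSMD10 rose in LNCaP (log2 0.17, adjusted p = 0.00304) and fell in LNCaP95 (log2 -0.13, adjusted p = 0.00914, and 0.337 with scaling by library size alone). In 22Rv1 none of the 3 passed the test (adjusted p = 0.615, 0.176 and 0.986 for PSMD5, PSMD9 and PSMD10), although PSMD9 did, with a lower level, without CPSF1 sh1 replicate 3 (log2 -0.15, adjusted p = 0.0132) and with CPSF1 sh2 alone (log2 -0.17, adjusted p = 0.00189). PSMC3IP, which is not a subunit, rose in LNCaP95 (log2 0.29, adjusted p = 0.00198) and did not pass the test in LNCaP (log2 0.12, adjusted p = 0.239) or 22Rv1 (log2 -0.12, adjusted p = 0.193), where CPSF1 sh2 alone gave -0.20 (adjusted p = 0.00298). Its change differed between 22Rv1 and LNCaP95 by log2 -0.42 ± 0.083 (adjusted p = 7.45e-05) but did not pass the test between LNCaP95 and LNCaP, at 0.19 ± 0.093 (adjusted p = 0.0816). With these genes, 36 of the 40 were tested in each line, and the 4 that were not are PSMB8, PSMB9, PSMA8 and PSMB11.

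Without knockdown, the lines differed in most subunits. With CTRL sh, 21 of 31 differed between LNCaP95 and LNCaP, 25 between 22Rv1 and LNCaP and 25 between 22Rv1 and LNCaP95, against 80.3%, 82.5% and 84.3% of all genes, so that the subunits were not above the background. The largest differences were in regulatory genes. The ATPase gene PSMC2 was higher in 22Rv1, by 0.74 ± 0.038 (adjusted p = 9.46e-18) against LNCaP and 0.80 ± 0.038 (adjusted p = 9.68e-19) against LNCaP95. PSMD7, the partner of PSMD14 in the lid, was lower in 22Rv1 than in LNCaP, with a log2 difference of -0.70 ± 0.042 (adjusted p = 4.52e-16). PSMD13 and PSMD8 were lower in 22Rv1 than in LNCaP95, with log2 differences of -0.67 ± 0.042 (adjusted p = 1.35e-15) and -0.66 ± 0.04 (adjusted p = 3.55e-16). With CTRL sh, both genes had their highest mean level in LNCaP95, the line in which they fell. The same CTRL sh libraries enter this level and the change in LNCaP95, so level and change are not independent. Of the other subunits lower in LNCaP95, PSMA1 was also highest there (59.1 CPM per kb). PSMC6 was highest in 22Rv1 (19.0 CPM per kb, against 16.8 in LNCaP95).

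The other proteasome pathway genes, a list of 37 activators, assembly factors, receptors, shuttles, ubiquitin genes and transcriptional regulators, were called in both directions. Of the 36 tested, LNCaP had 19 higher and 6 lower, against 31.1% and 31% of all genes. LNCaP95 had 13 in each direction (all genes 33.2% and 33.7%) and 22Rv1 had 4 in each (12.7% and 14.3%), which is near the background. Among the alternative caps, PSME1, a subunit of the interferon-inducible activator, fell in all 3 lines, with log2 fold changes of -0.62 (adjusted p = 8.04e-06), -0.83 (adjusted p = 3.19e-06) and -0.31 (adjusted p = 0.00559), with all knockdown libraries below the controls. Its partner PSME2 rose in LNCaP (log2 0.18, adjusted p = 0.00459) and was 0.12 (adjusted p = 0.0742) and 0.024 (adjusted p = 0.833) in LNCaP95 and 22Rv1. The nuclear activator PSME3 rose in LNCaP95 (log2 0.40, adjusted p = 0.000637). PSME4, a large single-chain activator, rose in LNCaP (log2 0.21, adjusted p = 0.000443) and fell in LNCaP95 (log2 -0.33, adjusted p = 0.00013), and the inhibitor PSMF1 rose in LNCaP (log2 0.33, adjusted p = 4.04e-06). In the lines not named, PSME3, PSME4 and PSMF1 did not pass the test (adjusted p = 0.193 to 0.893). POMP, which is needed to assemble the core particle, passed the test in no line (log2 0.057, adjusted p = 0.354, 0.10 (adjusted p = 0.127) and 0.13 (adjusted p = 0.0841)). In other settings it passed as higher, with CPSF1 sh1 alone in LNCaP (adjusted p = 0.0335) and with CPSF1 sh2 alone in LNCaP95 (0.0121) and 22Rv1 (0.0221). In LNCaP95 it also passed with the hairpins averaged (0.0398) and with scaling by library size alone (0.00766).

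NFE2L1, the transcription factor named above, had 355, 355 and 358 CPM with CTRL sh, 470.2, 476 and 447 with CPSF1 sh1 and 429.9, 455 and 443 with CPSF1 sh2 in LNCaP, with no overlap, and rose by log2 0.35 ± 0.036 (SE, adjusted p = 1.23e-06). In LNCaP95 it had 609.9, 553 and 539 CPM with CTRL sh, 505, 499.5 and 504 with CPSF1 sh1 and 491, 501 and 508 with CPSF1 sh2, likewise without overlap but in the other direction, and fell by 0.18 ± 0.044 on the log2 scale (SE, adjusted p = 0.00292), a call lost with scaling by library size alone (adjusted p = 0.0724). In 22Rv1 its log2 fold change was 0.038 (adjusted p = 0.517). NGLY1, the enzyme that removes the sugar chains of the NFE2L1 protein, rose in LNCaP by log2 0.52 ± 0.046 (SE, adjusted p = 2.32e-07), and in LNCaP95 it had a log2 fold change of -0.37 (adjusted p = 6e-05). The remaining genes with the largest changes were UBB, which encodes polyubiquitin, in LNCaP (log2 0.88, adjusted p = 6.6e-06) and 22Rv1 (log2 0.45, adjusted p = 0.0115), AKIRIN2, which carries proteasomes into the nucleus, in LNCaP95 (log2 -0.83, adjusted p = 5.09e-06), UFD1L, a cofactor of the segregase VCP, in LNCaP95 (log2 0.57, adjusted p = 0.000375), and TXNL1, a thioredoxin-like protein of the regulatory particle, in 22Rv1 (log2 0.25, adjusted p = 0.0025). UBB also passed the test in LNCaP95 (log2 0.40, adjusted p = 0.0129), a call lost without CTRL sh replicate 2 (adjusted p = 0.0791). The UBB call in 22Rv1 was lost without CTRL sh replicate 3 (adjusted p = 0.0724), and the repeated coding sequence of UBB makes its counts uncertain.

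Among regulatory subunits with a promoter, those with and without CCGGAAG were set side by side in a split chosen after the values were seen, as a description. In LNCaP95, where 33.2% of all genes were higher and 33.7% lower, of the 9 with the letters 3 were higher and 3 lower (median log2 fold change 0.04, range -0.35 to 0.45), and of the 7 without 6 were higher and 0 lower (median 0.24, range 0.02 to 0.37). The 3 lower genes were PSMD8, PSMD13 and PSMC6, whose windows are printed above, and the PSMC6 call was lost under the 3 settings given with its values and with CPSF1 sh2 alone (adjusted p = 0.0821). PSMD12, with the largest rise, holds both motifs. In LNCaP both sets were mostly higher, 7 of 9 and 7 of 7, with medians of 0.26 and 0.31, against 31.1% of all genes higher. In 22Rv1, 2 of 9 and 2 of 7 were higher and 0 lower, with medians of 0.02 and 0.08, against 12.7% higher and 14.3% lower over all genes.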

How the data were processed

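Cells were lysed 72 h after seeding, and poly(A)-selected stranded libraries (TruSeq Stranded mRNA) were sequenced. The authors aligned reads to GRCh37 and counted them per gene over Ensembl exons, and deposited 1 table of raw counts for 20268 genes in 27 libraries. The submitters' processing notes name HISAT2 2.1.0 and Subread 2.0.3. The treatment of reads that map to several places is not given in the sources used here. The table also holds gene positions and exon lengths, and 0 columns of values belong to other samples.

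Counts were fitted per line with edgeR 4.0.16 (R 4.3.3, limma 3.58.1), 3 CTRL sh against 6 CPSF1 sh libraries, with trimmed mean of M-values scaling, the legacy quasi-likelihood F-test, a filter that kept genes over 2 CPM in each of the 9 libraries, and Benjamini-Hochberg adjustment over all genes tested with a threshold of 0.05. Hairpins were compared in a fit with 3 groups per line, and lines in a fit of all 27 libraries in 9 groups. The biological coefficient of variation was 4.95%, 7.09% and 6.08% in LNCaP, LNCaP95 and 22Rv1. Replicates of a group differed by more than counting noise (chi-square per degree of freedom 1.38 to 6.98 over 27 pairs), so none was counted as a repeat of another. The standard error of a log2 fold change is its size divided by the square root of F.

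The members and lists were chosen with earlier results of these data known. Values were given for the 3 core and 3 regulatory subunits with the largest change past the threshold in each line, those called alike in all 3 lines or in opposite directions, those with the largest differences between lines, the immunoproteasome, tissue-restricted and chaperone genes, PSMC3IP, the highest and lowest subunits per kb, and CPSF1. Of the pathway list, they were given for NFE2L1, POMP, PSME1 to PSME4, PSMF1 and the 3 largest changes per line. Alternatives were DESeq2 1.42.0, RLE size factors, library size alone, edgeR's filterByExpr, no filter, the current quasi-likelihood form, each hairpin alone, hairpins averaged, a replicate block and each library left out. The scripts were tested on simulated data.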

Additional observations from a re-analysis of the deposited data

Results flagged for a closer look

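The change with CPSF1 depletion differed between lines for the subunits below, by the edgeR contrast of the change in 1 line with that in another over all 27 libraries. The 6 largest differences of each pair of lines are given as log2 values with the SE and the adjusted p, and each pair shares its lines with the other pairs. The cause of the differences was not tested. In the pairs with LNCaP95, line, medium and puromycin dose cannot be told apart.

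LNCaP95 minus LNCaP was -0.67 ± 0.048 (adjusted p = 3.57e-13) for the lid subunit PSMD8, -0.43 ± 0.05 (adjusted p = 1.44e-08) for PSMD13 and -0.38 ± 0.065 (adjusted p = 1.04e-05) for the ATPase PSMC6. It was -0.33 ± 0.046 (adjusted p = 2.76e-07) for PSMC4, -0.32 ± 0.08 (adjusted p = 0.00111) for PSMA6 and -0.29 ± 0.053 (adjusted p = 2.91e-05) for PSMB3. PSMD8, PSMD13 and PSMC6 were called in opposite directions in the 2 lines, whereas PSMC4, PSMA6 and PSMB3 rose in LNCaP and were not called in LNCaP95.

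22Rv1 minus LNCaP was -0.41 ± 0.049 (adjusted p = 4.5e-08) for PSMD8, -0.31 ± 0.047 (adjusted p = 2.28e-06) for PSMC4 and -0.29 ± 0.042 (adjusted p = 1.19e-06) for PSMD1. It was -0.29 ± 0.046 (adjusted p = 5.02e-06) for PSMC2, -0.27 ± 0.055 (adjusted p = 0.00013) for PSMB3 and -0.26 ± 0.046 (adjusted p = 2.06e-05) for PSMB5. All 6 rose in LNCaP and none was called in 22Rv1.

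22Rv1 minus LNCaP95 was 0.44 ± 0.051 (adjusted p = 1.27e-08) for PSMD13, the single positive value, -0.36 ± 0.063 (adjusted p = 1.37e-05) for PSMD12 and -0.35 ± 0.057 (adjusted p = 5.16e-06) for PSMC3. It was -0.31 ± 0.046 (adjusted p = 1.12e-06) for PSMC2, -0.30 ± 0.049 (adjusted p = 5.16e-06) for PSMC5 and -0.30 ± 0.042 (adjusted p = 4.33e-07) for PSMD1. The last 5 are regulatory subunits that rose in LNCaP95.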

How the results depend on the processing

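No direction of a call was reversed in any setting run. In LNCaP the number of higher subunits, 24, ranged from 21 to 24 with 1 library left out and over all other settings, and the number lower, 2, was 1 with CPSF1 sh1 alone and 1 to 2 with 1 library left out. The LNCaP subunits that differed between hairpins, 2, were 1 with DESeq2, with library size alone and with filterByExpr, and 0 to 3 with 1 library left out. In LNCaP95 the 12 higher subunits ranged from 10 to 14 with 1 library left out and from 11 to 17 otherwise, the 4 lower ones were 2 with library size alone, 5 with DESeq2, 6 with filterByExpr and with no filter, and 2 to 4 with 1 library left out, and the 17 that differed between hairpins were 9 to 16 with 1 library left out. In 22Rv1 the 4 higher subunits were 2 with no filter, 11 with CPSF1 sh2 alone and 1 with CPSF1 sh1 alone, and 1 to 6 with 1 library left out. There the 0 lower ones were 2 with CPSF1 sh2 alone and 0 to 1 with 1 library left out (1 without CPSF1 sh1 replicate 3, PSMD14), and the 2 that differed between hairpins were 0 to 2. The 13, 19 and 15 subunits whose change differed between lines were 12 to 13, 16 to 21 and 12 to 15 with 1 library left out, and 9 to 16, 16 to 20 and 13 to 18 otherwise.

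The replicate numbers gave no common pairing of the samples (correlations of same-numbered deviations from -0.057 to 0.25 in LNCaP, -0.239 to 0.283 in LNCaP95 and -0.115 to 0.2 in 22Rv1). With the replicate number as a block, the 4 higher subunits in 22Rv1 were 2, with PSMC1 (adjusted p = 0.0539) and PSMD3 (0.0823) lost, and no other count moved by over 1.5 times.

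Depth limits the immunoproteasome genes PSMB8 and PSMB9, whose libraries hold few counts. With 3 replicates from pools of infected cells and 3 shared controls, small changes such as those of PSMA3, PSMA4, PSMB4, PSMC1, PSMD3 and PSMC6 turn on single libraries. The cause of these changes between settings was not tested.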
